A study of Mus musculus with 6 samples.

Results

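Toll-like receptor genes were examined for chromatin accessibility in LSCs (leukemia stem cells) from mice with MLL-AF9-driven acute myeloid leukemia, with and without MMF treatment. The 10 genes were Tlr1, Tlr2, Tlr3, Tlr4, Tlr5, Tlr6, Tlr9, Cd14, Ly96 and Myd88, and every ATAC-seq peak that overlapped a gene body (GENCODE M21 on mm10, GRCm38) or the 20 kb on either side of it was taken. Peaks were merged over the 6 deposited peak lists, and 61 of the 112852 merged regions lay in these windows. Of the 10 windows, 9 held at least 1 region and the Tlr3 window held none. All 6 samples were labelled as wild-type L-GMP cells from blood, a cell type given as AML LSCs, grown with mouse IL3 and sorted before the assay. The 3 control samples were labelled as control and the 3 MMF samples had received mycophenolate mofetil, which blocks inosine monophosphate dehydrogenase in guanine nucleotide synthesis, for 24 h by the labels; the study's methods and figure legends give different doses and times. The labels do not say whether the 3 samples of a group came from separate animals or cultures, so p-values measure the spread between these samples only.

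Toll-like receptors are membrane receptors of innate immunity that recognize conserved microbial molecules. At the cell surface, Tlr2 pairs with Tlr1 or Tlr6 to bind bacterial lipopeptides, Tlr4 binds lipopolysaccharide together with Ly96 (MD-2) after its delivery by Cd14, and Tlr5 binds flagellin, whereas Tlr3 and Tlr9 bind double-stranded RNA and unmethylated CpG DNA in endosomes. All but Tlr3 signal through the adaptor Myd88 to kinases of the IRAK family and on to NF-kB, and the pathway is best known from mature myeloid cells such as monocytes, macrophages and neutrophils.

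Most of the signal that differed between the groups lay outside promoters, and 5 such elements are shown as the sequence of 200 bp around the highest summit (GRCm38, plus strand, 5′ to 3′). Each element is named by its gene and by the distance of its summit from the gene's first start in the GENCODE M21 basic annotation. Plus stands for the direction of transcription. Capitals mark AP-1 (TGANTCA) or RUNX (AACCACA) letters on either strand, the motifs found most often in the elements that were called or gained below. The elements at Tlr2 +2.2 kb (chr3:83839448-83839647, in an intron of Tlr2), Tlr4 +29.6 kb (chr4:66857079-66857278, in an intron of Tlr4) and Tlr5 +15.3 kb (chr1:182970031-182970230, in an intron of Tlr5) are shown because they passed under every scaling used. Cd14 +6.7 kb also passed under each of these. Its sequence is not shown here, and it held none of the motif letters searched for. Those at Tlr2 −3.6 kb (chr3:83845250-83845449, between genes) and Tlr4 +15.9 kb (chr4:66843381-66843580, in an intron of Tlr4) are shown because they held both motifs.
Tlr2 +2.2 kb: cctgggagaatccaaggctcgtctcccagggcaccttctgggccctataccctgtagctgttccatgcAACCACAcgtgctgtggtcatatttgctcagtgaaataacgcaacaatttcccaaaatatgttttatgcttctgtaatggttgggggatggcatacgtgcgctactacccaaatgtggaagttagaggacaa
Tlr4 +29.6 kb: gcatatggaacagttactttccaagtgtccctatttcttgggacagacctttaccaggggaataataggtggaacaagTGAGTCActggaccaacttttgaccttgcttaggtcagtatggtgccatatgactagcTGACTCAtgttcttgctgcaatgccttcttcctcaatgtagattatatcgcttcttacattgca
Tlr5 +15.3 kb: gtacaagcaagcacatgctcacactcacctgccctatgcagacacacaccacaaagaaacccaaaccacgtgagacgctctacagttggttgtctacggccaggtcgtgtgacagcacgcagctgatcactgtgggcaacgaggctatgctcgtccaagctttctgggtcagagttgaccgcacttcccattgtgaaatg
Tlr2 −3.6 kb: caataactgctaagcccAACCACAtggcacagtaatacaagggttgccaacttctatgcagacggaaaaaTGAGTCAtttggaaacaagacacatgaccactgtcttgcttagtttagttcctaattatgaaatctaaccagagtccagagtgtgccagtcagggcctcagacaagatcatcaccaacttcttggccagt
Tlr4 +15.9 kb: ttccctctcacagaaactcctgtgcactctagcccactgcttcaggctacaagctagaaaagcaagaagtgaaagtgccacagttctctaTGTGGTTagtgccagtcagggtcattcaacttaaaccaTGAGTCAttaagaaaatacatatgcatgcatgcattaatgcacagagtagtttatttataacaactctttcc

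Values are given as scaled summit reads, the number of reads over the summit of a called peak divided by the reads expected at random from the genome-wide background of that sample. That background ranged from 0.620 to 0.909 reads and the median summit held 14 to 19 reads, so 1 read was worth 1.1 to 1.61 units and low values carry a large counting error. The lists hold called peaks only, so a region missing from a list had no called peak there and its level is unknown. The MMF lists were longer, with 80893 to 86556 peaks against 58496 to 63911 in the control lists. Over the 41182 regions with a peak in all 6 lists, the median region was 0.17 higher in MMF samples on the log2 scale. When each sample was instead centred on its own median, every difference dropped by 0.35, and the share of the limma calls that were higher in MMF fell from 95.0% to 33.2%, so centred values are given beside each call.

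The windows held 45, 39 and 39 peaks in the control lists (41.0 ± 3.46, SD, n = 3) and 55, 53 and 52 peaks in the MMF lists (53.3 ± 1.53, SD, n = 3). All MMF lists thus held more (p = 0.1 by a two-sided exact permutation test, which cannot go lower with groups of 3). The ratio of the means was 1.30, against 1.37 for the whole lists. At equal list length, with the 58496 peaks of lowest p of every list, the control lists held 42, 39 and 39 peaks in the windows and the MMF lists held 42, 43 and 44. The difference of the means was 12.3 peaks over the whole lists and 3 peaks at equal length (two-sided exact permutation test, p = 0.2).

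Of the 61 regions, 31 were in all 6 lists (50.8%, against 36.5% of all regions). A gained region, with a peak in all 3 MMF and in none of the control lists, was found 2 times (3.28%, against 6% of all regions), and no region was lost (0.182% of all regions). The other 28 regions were in some of the lists in another combination. In all, 25 regions were in more MMF than control lists and 2 were in more control than MMF lists. At equal list length 0 regions were gained and 1 was lost.

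The 31 shared regions were compared with limma across all 41182 shared regions (Benjamini-Hochberg adjusted p, threshold 0.05). Of these, 7 were called higher in MMF samples (22.6%, against 18.6% of all shared regions) and 0 lower (0.969% of all). At an unadjusted p under 0.05, 13 were higher (28.9% of all) and 0 lower (3.72% of all). By rank within a list, 4 were called higher (5.83% of all). After centring, 4 were called higher (6.9% of all) and 3 lower (13.9% of all). The 3 control and 3 MMF samples did not overlap in 18 regions, 16 with all MMF samples higher (51.6%, against 29.1% of all) and 2 with all MMF samples lower (6.45%, against 7.68% of all). After centring, 7 were higher (12.4% of all) and 9 lower (31.2% of all) without overlap. The 7 regions called higher by limma were all among the 18 regions over 1 kb from any annotated start of a protein-coding gene (38.9%, against 24.5% of all such regions). Starts of other gene types were not considered. The median difference of these 18 was 0.56 on the log2 scale, against 0.32 for all such regions, and none was called lower (0.884% of all such regions). In this class 12 regions were higher and 1 was lower without overlap (37.5% and 4.16% of all such regions), and 4 were called higher after centring (9.2%). Among the 13 regions within 1 kb of a start, of these genes or of neighbours, 0 were called in either direction (3.25% of all such regions higher and 1.19% lower; 2 higher and 0 lower at an unadjusted p under 0.05, against 6% and 5.79%), and the median difference was −0.02, against −0.09. Here 4 were higher and 1 was lower without overlap (7.65% and 16.7% of all such regions), and 2 were called lower after centring (28.7%).

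**Figure D1:**
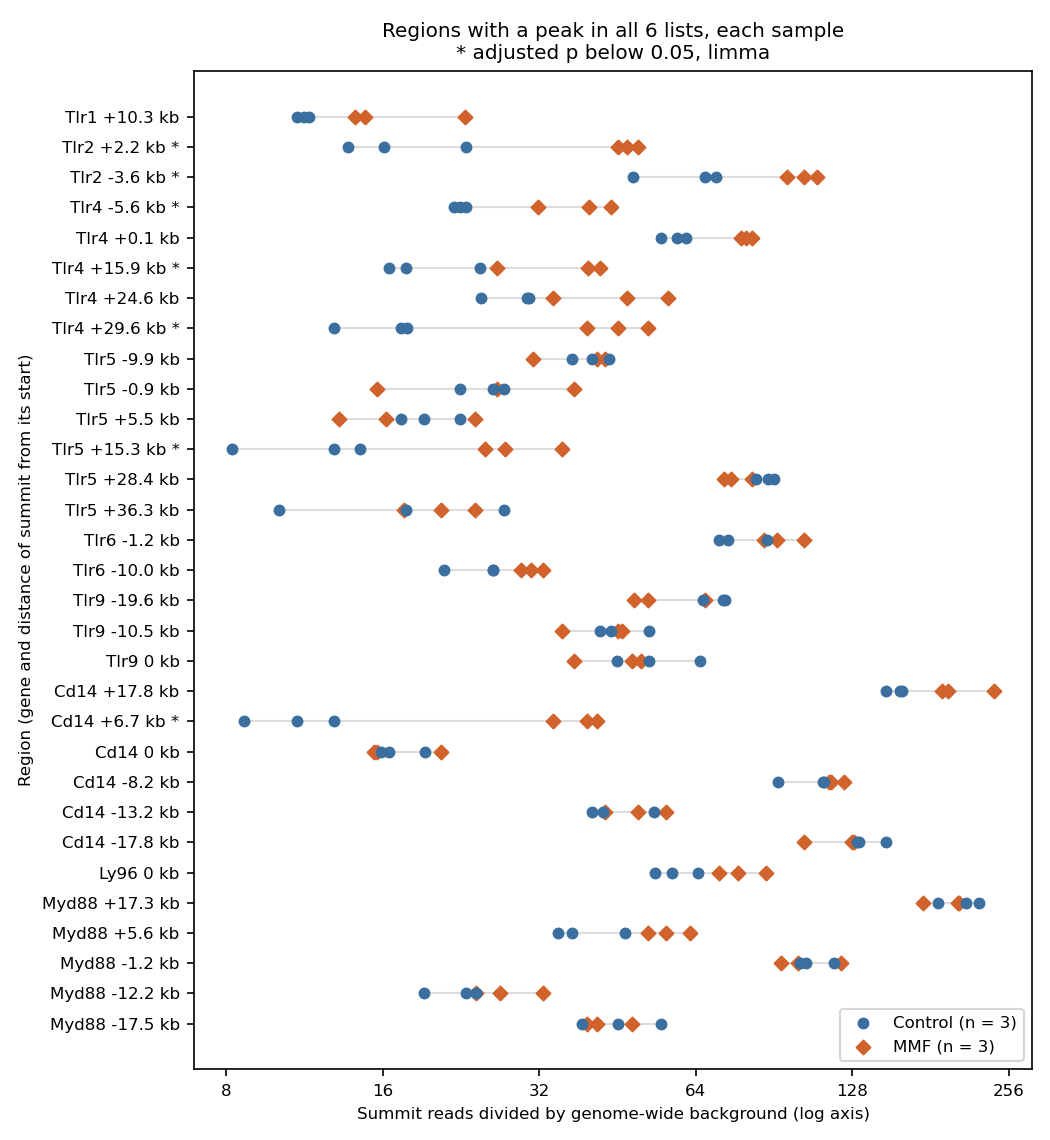
Scaled summit reads (log axis) of the 31 regions with a peak in all 6 lists, with circles for the 3 control and diamonds for the 3 MMF samples, named by gene and distance of the summit from its start; stars mark the 7 regions with an adjusted p below 0.05 by limma. The widest gaps between the groups are at Cd14 +6.7 kb, Tlr4 +29.6 kb, Tlr2 +2.2 kb and Tlr5 +15.3 kb, while most promoter regions overlap.

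**Figure D2:**
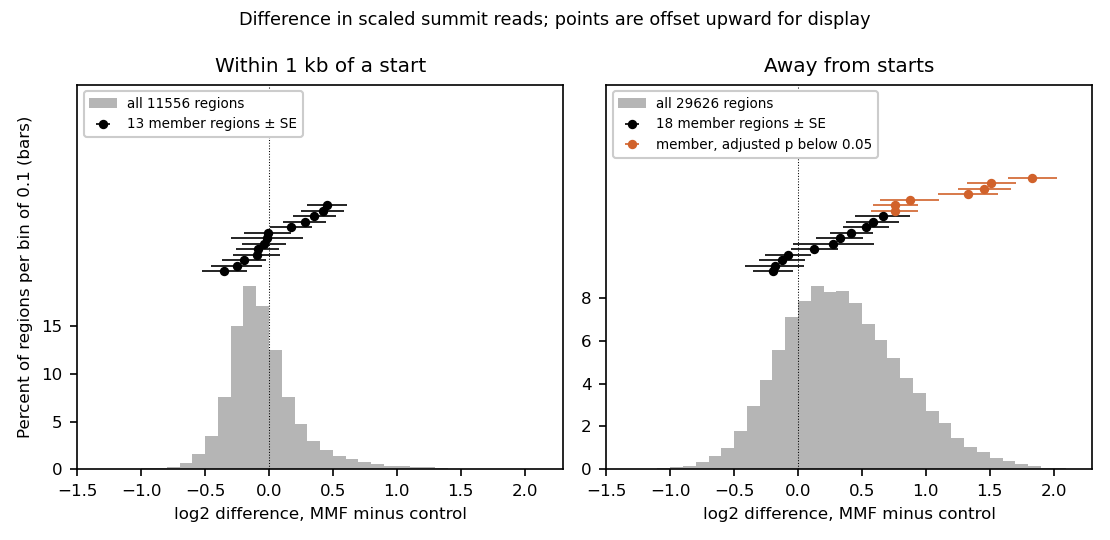
Difference in scaled summit reads (log2, MMF minus control) of the 13 member regions within 1 kb of a start of a protein-coding gene and of the 18 others. Points with SE are offset upward, above the percent of all 11556 and 29626 such regions per bin of 0.1 (bars). The 7 called regions lie on the right side of the distribution of regions away from starts, whose median is 0.32.

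Tlr2, the receptor shared by both lipopeptide-binding pairs, had 9 regions in its window, of which 2 were in all 6 lists and both were called higher with MMF treatment. The intronic region at +2.2 kb (chr3:83839411-83839890) had 13.7, 23.1 and 16.1 scaled summit reads in control and 49.5, 45.3 and 47.3 in MMF samples. The groups were well apart, with 10, 16 and 10 reads against 45, 32 and 32, and the difference was 1.46 ± 0.21 on the log2 scale (SE, 2.75-fold, adjusted p = 0.00217; 1.1 after centring, adjusted p = 0.0157). The upstream region at −3.6 kb (chr3:83844909-83845699), the highest of the window, had 70, 66.5 and 48.4 in control and 95.7, 103 and 109 in MMF samples. The groups did not overlap here either, and the difference was 0.75 ± 0.19 (1.69-fold, adjusted p = 0.0199). It did not pass after centring (0.40, adjusted p = 0.139), by rank (adjusted p = 0.066), on the fold enrichment (adjusted p = 0.0662) or without control sample 3 (adjusted p = 0.0556), MMF sample 2 (0.0599) or MMF sample 3 (0.0623).

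The promoter region of Tlr2 was called in fewer MMF than control lists, which does not show a lower level. At +0.4 kb (chr3:83841139-83841703) it had a called peak in all 3 control lists, at 17.8, 21.7 and 35.5, and in MMF sample 1 only, at 18.7. It was 1 of the 2 regions found in more control than MMF lists, and the only promoter region of these genes to be so. The value of MMF sample 1 lay within the range of the control values. By rank of fold enrichment within its list it stood at 0.36%, near the bottom, against 4.93%, 7.56% and 50.8% in the control lists. Without MMF sample 1 this was the 1 region that counted as lost. The level in the other MMF samples is unknown, so a difference in level could not be tested. Farther upstream, the region at −17.5 kb (chr3:83859167-83859380, between genes) was gained, with 20.9, 29.7 and 26.6 in the MMF samples from 19, 21 and 18 reads and no called peak in any control list. The remaining 5 regions of the window had at most 21.2 scaled summit reads in any sample, and 4 of them were in MMF lists only.

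Tlr1 and Tlr6, the partners of Tlr2, lie next to each other on chromosome 5, and their windows shared 2 regions. The promoter of Tlr1 (−0.1 kb, chr5:64933510-64933724) was weak, with 9.67 in control sample 3 and 9.90, 12.7 and 13.3 in the MMF samples and no called peak in the other controls. The only shared region of its own window, at +10.3 kb (chr5:64922918-64923412), had 11.0, 11.6 and 11.3 in control and 23.1, 14.2 and 14.8 in MMF samples, a difference of 0.58 ± 0.21 (adjusted p = 0.0765) without overlap. The promoter region of Tlr6 (−1.2 kb, chr5:64960751-64961524) was strong and had 87.8, 73.8 and 70.9 in control and 103, 86.4 and 91.6 in MMF samples. These groups overlapped, and the difference was 0.28 ± 0.17 (adjusted p = 0.293) and −0.08 after centring. A second promoter region of Tlr6 (−0.1 kb, chr5:64960003-64960169) had a called peak in MMF sample 2 only, at 31.2. At −10.0 kb lay the promoter of the neighbour Fam114a1, with a difference of 0.35 ± 0.17 (adjusted p = 0.174) without overlap.

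**Figure D3:**
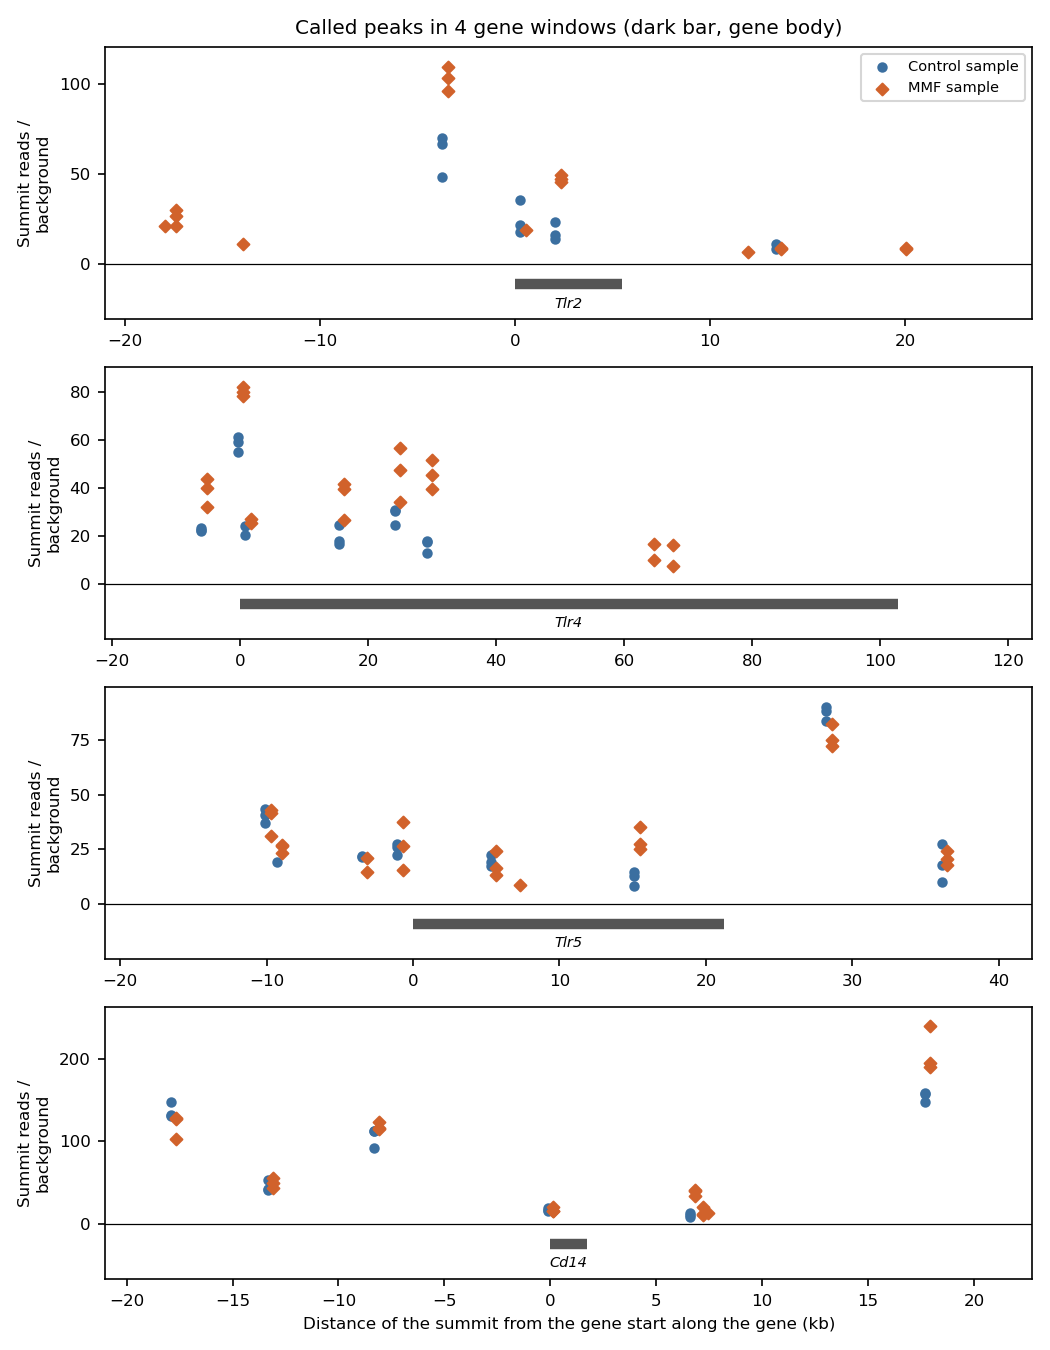
Scaled summit reads of every called peak in the windows of Tlr2, Tlr4, Tlr5 and Cd14 against the distance of its summit from the gene start (kb, along the gene), with circles for control samples, diamonds for MMF samples, drawn slightly apart, and a dark bar for the gene body. In the Tlr4 window the MMF samples lie above the control samples at the 5 positions with a peak in all 6 lists. Among such positions of the Tlr5 window they do so at +15.3 kb and not at the promoter.

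Tlr4, the lipopolysaccharide receptor, had 8 regions, of which 5 were in all 6 lists. In all 5 the MMF samples lay above the control samples without overlap, and 3 were called higher. The region at +29.6 kb (chr4:66857030-66857420) had 17.8, 17.4 and 12.9 in control and 39.6, 45.3 and 51.7 in MMF samples, from 13, 12 and 8 reads and from 36, 32 and 35 reads. The difference was 1.51 ± 0.19 (2.85-fold, adjusted p = 0.00158; 1.16 after centring, adjusted p = 0.0115). The region at +15.9 kb (chr4:66843299-66843626) had 16.5, 24.6 and 17.7 in control and 41.8, 39.7 and 26.6 in MMF samples, where MMF sample 3 was close to the highest control sample. Its difference was 0.87 ± 0.23 (1.83-fold, adjusted p = 0.0244; 0.52 after centring, adjusted p = 0.114), and the call was lost without any of control sample 1 (adjusted p = 0.0768), control sample 3 (0.0664), MMF sample 1 (0.0896) or MMF sample 2 (0.086).

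The upstream region of Tlr4 at −5.6 kb (chr4:66821823-66822711) was the third to be called, with 22, 23.1 and 22.6 in control and 31.9, 43.9 and 39.9 in MMF samples. The control samples lay close together, and the difference was 0.76 ± 0.17 (1.70-fold, adjusted p = 0.0141; 0.41 after centring, adjusted p = 0.103); without MMF sample 2 it did not pass (adjusted p = 0.0565). The promoter region (+0.1 kb, chr4:66827325-66828193) had 59.0, 55.0 and 61.3 in control and 78.1, 82.2 and 79.8 in MMF samples. This difference of 0.46 ± 0.15 (1.37-fold) did not pass (adjusted p = 0.0656; 0.0493 at equal list length) and was 0.1 after centring. The intronic region at +24.6 kb (chr4:66851985-66852522) had 24.7, 30.4 and 30.6 in control and 47.3, 56.7 and 34.0 in MMF samples. Its difference of 0.66 ± 0.21 did not pass with all samples (adjusted p = 0.0541) but passed without MMF sample 3 (adjusted p = 0.0251) and at equal list length (adjusted p = 0.0381). Of the 3 remaining regions, those at +64.2 and +67.2 kb were in 2 MMF lists each and in no control list. The regions from +15.9 kb on lie in an intron of a long annotated transcript of Tlr4 only.

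Tlr5, the flagellin receptor, had 9 regions, 6 of them in all 6 lists, and 1 was called. The intronic region at +15.3 kb (chr1:182969873-182970375) had 8.23, 14.5 and 12.9 in control and 27.5, 35.4 and 25.1 in MMF samples, from 6, 10 and 8 reads and from 25, 25 and 17 reads. All MMF samples were above all control samples, and the difference was 1.33 ± 0.24 (2.52-fold, adjusted p = 0.00487; 0.98 after centring, adjusted p = 0.0251). The promoter region (−0.9 kb, chr1:182953533-182954168) had 27.4, 26.0 and 22.6 in control and 37.4, 15.6 and 26.6 in MMF samples, where the MMF samples included both the highest and the lowest value (−0.02 ± 0.28, adjusted p = 0.972). The highest region of the window lay downstream at +28.4 kb (chr1:182982972-182983636) and went the other way without overlap, with 83.7, 88.2 and 90.3 in control and 74.8, 82.2 and 72.4 in MMF samples. Its difference of −0.19 ± 0.16 did not pass (adjusted p = 0.431), whereas after centring it was −0.55 and passed (adjusted p = 0.0358).

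The nucleic acid sensors showed no call. The promoter region of Tlr9 (chr9:106222218-106222948) had 52.1, 65.1 and 45.1 in control and 37.4, 48.2 and 50.3 in MMF samples, which overlapped (−0.25 ± 0.20, adjusted p = 0.418; −0.61 after centring, adjusted p = 0.0529). At −19.6 kb lay the promoter of Twf2, with a difference of −0.35 ± 0.18 (adjusted p = 0.203; −0.70 after centring, adjusted p = 0.0269). A second promoter region of Tlr9 (+0.6 kb, chr9:106223153-106223311) had a called peak in MMF sample 1 only, at 18.7. Downstream of Tlr9, 3 regions at +7.9, +20.4 and +22.4 kb were in all 3 MMF lists, at 22.2 to 39.6, and in 2, 1 and 1 of the control lists, at 16.5 to 21. No peak of any list lay in the window of Tlr3 (chr8:45395665-45411080 and its flanks), which falls in a stretch of 120.6 kb between neighbouring regions. Of the windows of the same kind around 21938 protein-coding genes, 14.2% held no region.

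Cd14, the lipopolysaccharide co-receptor and a marker of monocytes, had 8 regions, 6 of them in all 6 lists, in a gene-dense stretch of chromosome 18. The region at +6.7 kb (chr18:36719986-36720351, between genes) had the largest difference of all 31 shared regions, with 11.0, 8.68 and 12.9 in control and 39.6, 34.0 and 41.4 in MMF samples. These came from 8, 6 and 8 reads and from 36, 24 and 28 reads, and the difference was 1.83 ± 0.19 (3.57-fold, adjusted p = 0.00103; 1.48 after centring, adjusted p = 0.00673). Next to it, the region at +7.1 kb (chr18:36719574-36719886) was gained, with 12.1, 19.8 and 10.3 in the MMF samples from 11, 14 and 7 reads. The promoter region of Cd14 (chr18:36725496-36726912) was low and overlapped between the groups, with 16.5, 15.9 and 19.3 in control and 15.4, 15.6 and 20.7 in MMF samples (−0.01 ± 0.18, adjusted p = 0.978). Of the other 4 shared regions none was called; that at +17.8 kb was higher without overlap (0.42 ± 0.17, adjusted p = 0.109), that at the promoter of the neighbour Tmco6 likewise (0.17 ± 0.16, adjusted p = 0.524), and that at the shared promoter of Ndufa2 and Ik lower without overlap (−0.20 ± 0.17, adjusted p = 0.465; −0.55 after centring, adjusted p = 0.0442).

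Ly96, which binds lipopolysaccharide in complex with Tlr4, had 3 regions and only its promoter region was in all 6 lists. At chr1:16687982-16689059 it had 57.6, 53.5 and 64.5 in control and 77.0, 70.8 and 87.2 in MMF samples. The MMF samples were all higher, but the difference of 0.42 ± 0.17 (1.34-fold) did not pass (adjusted p = 0.112) and was 0.06 after centring. The other regions, at −13.2 and +8.3 kb, stayed at or below 14.3 in every list that held them.

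Myd88, the adaptor of all of these receptors but Tlr3, had 7 regions, 5 of them in all 6 lists, and none was called by limma (1 higher at an unadjusted p under 0.05). Its promoter region in all 6 lists (−1.2 kb, chr9:119340910-119341720) lay also at a start of Acaa1a and had 118, 104 and 102 in control and 93.5, 122 and 101 in MMF samples (−0.04 ± 0.17, adjusted p = 0.896). A separate narrow peak at its first start in the basic annotation (chr9:119339944-119340143) was in 1 control list, at 43.9. It was in all 3 MMF lists, at 34.1, 34.0 and 50.3. The full gene record of Myd88 reaches farther upstream, to chr9:119341411, near the summit of the −1.2 kb region. The region at +5.6 kb, in an intron of the overlapping gene Slc22a14, was higher without overlap (0.53 ± 0.18, adjusted p = 0.0644; 0.0414 without control sample 3 and 0.0474 at equal list length), as was that at −12.2 kb (0.33 ± 0.18, adjusted p = 0.25; −0.03 after centring). The regions at +17.3 and −17.5 kb are promoters of Oxsr1 and Xylb and overlapped between the groups.

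The scaled summit reads were also summed over the regions of each window that were in all 6 lists. These sums include promoters of neighbouring genes and so do not describe the named gene alone. In control means, Tmco6 (105.7) and Ndufa2 with Ik (136.8) entered the Cd14 sum of 471.1, to which the Cd14 promoter gave 17.2. Oxsr1 (207.3) and Xylb (46.3) entered the Myd88 sum of 423.2, Twf2 (70.4) the Tlr9 sum of 170.5, and Fam114a1 (24.4) the Tlr6 sum of 101.9. The sum was 79.3 ± 13.2 in control and 150.2 ± 5.89 in MMF samples for Tlr2 (SD, n = 3, 1.91-fold) and 145.2 ± 5.23 and 246.2 ± 19 for Tlr4 (1.69-fold). It was 1.5-fold for Tlr1 and 1.34-fold for Ly96, each from a single region, 1.23-fold for Tlr6 and 1.17-fold for Cd14. All of these sums were higher in all 3 MMF samples (two-sided exact permutation test, p = 0.1 for each and the smallest possible, so no adjustment over the 9 genes can pass). The sums overlapped for Tlr5 (1.03-fold), Myd88 (1.01-fold) and Tlr9 (0.841-fold), with exact permutation p values of 0.3, 0.9 and 0.2. After centring, the log2 differences were 0.58 for Tlr2, 0.41 for Tlr4, 0.23 for Tlr1 and 0.06 for Ly96, and −0.06 for Tlr6, −0.13 for Cd14, −0.31 for Tlr5, −0.34 for Myd88 and −0.60 for Tlr9. The groups did not overlap on this scale for Tlr2 and Tlr4, which were higher, and for Cd14, Tlr5, Myd88 and Tlr9, which were lower (exact permutation p = 0.1 for each), while p was 0.6 for Tlr1 and Ly96 and 0.7 for Tlr6.

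**Figure D4:**
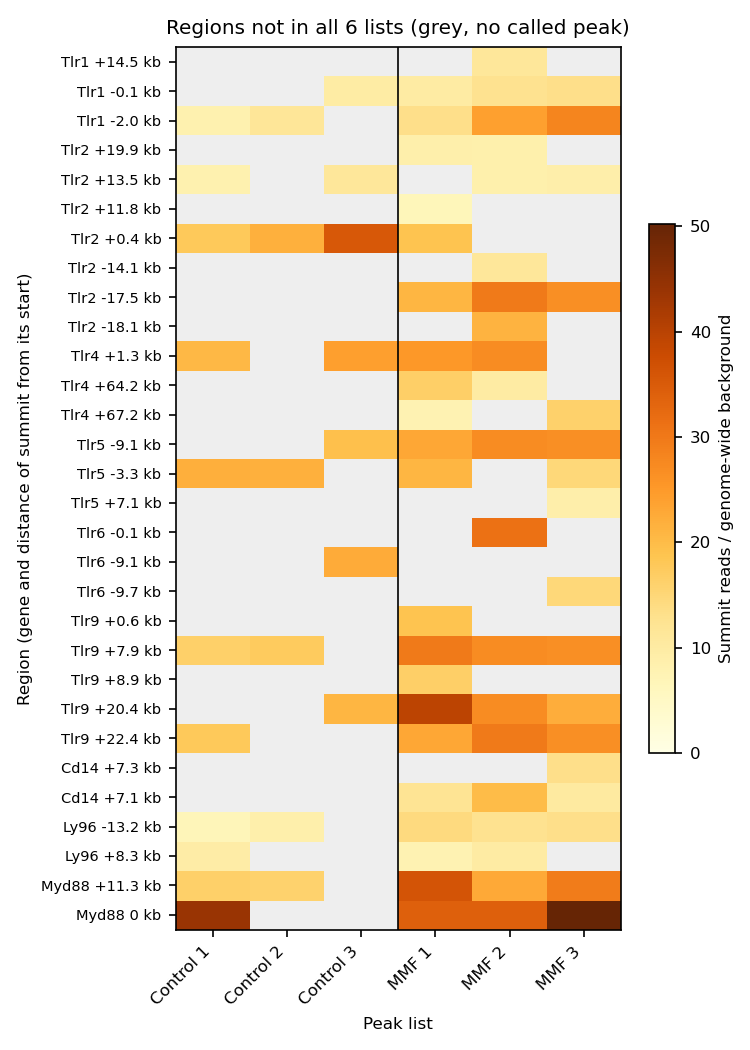
Scaled summit reads (color) in each of the 6 peak lists for the 30 regions that were not in all 6 lists; grey marks no called peak. Most rows are filled on the MMF side, and the row of Tlr2 +0.4 kb is filled in all 3 control lists and in 1 MMF list.

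Of the 30 regions outside the shared set, 15 were in no control list and 1 was in no MMF list, that at −9.1 kb of Tlr6 in control sample 3. Single lists held 11 of the 30, and for 10 of these the list was an MMF list. No count of this kind was tested, since the MMF lists were longer as a whole: 31.3% of all regions were in no control list and 7.02% in no MMF list.

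Motif letters at the summits were counted in windows of 200 bp on both strands. AP-1 letters (TGANTCA) were found in 16 of the 61 regions (26.2%, against 16.1% of all regions), C/EBP (TTGCNNAA) in 9 (14.8%, against 14.9%), RUNX (AACCACA) in 5 (8.20%, against 10.8%) and PU.1 (GAGGAAGT) in 4 (6.56%, against 8.27%). KLF (CCNCNCCC) was found in 14 (23%, against 25%) and NF-Y (CCAAT) in 9 (14.8%, against 23.5%). Among the 9 regions called or gained, 4 held AP-1 and 3 held RUNX letters. The share among all regions called or gained was not counted, so these counts do not set the 9 apart. The AP-1 letters stood at Tlr2 −3.6 kb, at Tlr4 +15.9 kb, at Tlr4 +29.6 kb on 2 sites, and at Cd14 +7.1 kb (sequence not shown). The RUNX letters stood at Tlr2 +2.2 kb, Tlr2 −3.6 kb and Tlr4 +15.9 kb. Some of the sequences given above were chosen because they held both motifs. The letters of NF-kB (0.193% of all regions), of the interferon response element (2.64%) and of the PU.1-IRF composite (3.27%, which can share letters with PU.1 and with the interferon response element) were in 1 region each, at Tlr9 +7.9 kb, at the first start of Myd88 and at Tlr9 +0.6 kb. A match describes the letters in the window and does not show binding.

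The other genes of the pathway were read at their promoters. Of 45 genes, from further receptors to kinases, transcription factors and inhibitors, 36 had a promoter region in all 6 lists, 6 in some and 3 in none. By limma 1 was called higher (against 2.5% of the promoters of all protein-coding genes) and 0 lower (1.06% of all), with the same counts of 1 and 0 at an unadjusted p under 0.05 (4.75% and 5.95% of all). The called gene was Ikbke, a kinase upstream of interferon regulatory factors, with 24.7, 24.6 and 14.5 in control and 36.3, 55.2 and 39.9 in MMF samples. The MMF samples were all higher, and the difference was 1.06 ± 0.25 (2.09-fold, adjusted p = 0.0155; 0.71 after centring, adjusted p = 0.0643; adjusted p = 0.0615 without MMF sample 2). It was also the only promoter without overlap and higher (6.2% of all), while 4 were without overlap and lower (17.9% of all).

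These were Traf3, a ubiquitin ligase adaptor, at −0.34 ± 0.15 (adjusted p = 0.156), Tab1, a partner of the kinase Map3k7, at −0.24 ± 0.17 (adjusted p = 0.364), Nfkbia, the NF-kB inhibitor, at −0.21 ± 0.17 (adjusted p = 0.417), and Socs1, an inhibitor of cytokine signaling. None of the 4 passed. After centring, Traf3 (−0.69, adjusted p = 0.0212), Tab1 (−0.59, adjusted p = 0.0366) and Nfkbia (−0.57, adjusted p = 0.0392) passed as lower, and Socs1 did not (−0.46, adjusted p = 0.0573). The median over the 36 promoters was −0.11, against −0.09 for all promoter regions, and after centring 13 were called lower (against 30.5% of the promoters of all protein-coding genes) and 0 higher (0.786% of all). Of the 6 genes with a promoter region in some lists, Tlr7, a receptor of single-stranded RNA, had a peak in no control list. It was in all 3 MMF lists, at 18.7, 9.92 and 16.3 (6% of all regions were gained in this way). Tlr13 and Cd180 were in 2 control and 3 MMF lists, and Cd36 in 1 MMF list only. Ticam2 was in 2 lists of each group, and Irf7 went the other way, in 3 control and 2 MMF lists.

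**Figure D5:**
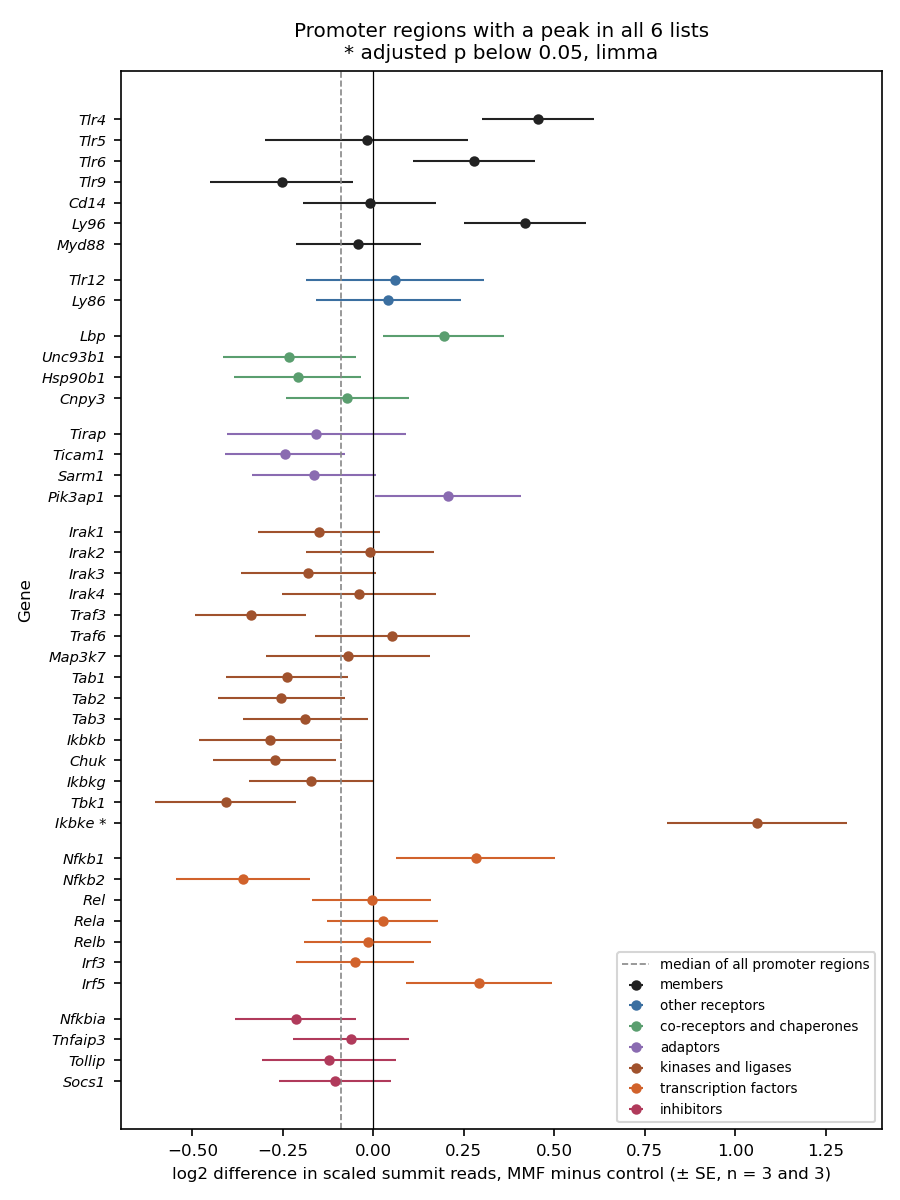
Difference in scaled summit reads (log2, MMF minus control, with SE, n = 3 and 3) at the promoter region of 7 members and of the 36 other pathway genes with a peak in all 6 lists, by role; the dashed line is the median of all promoter regions (−0.09). Ikbke, at 1.06, is the only gene with an adjusted p below 0.05.

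Markers of cell types were read in the same way. Of the promoters of all protein-coding genes, 2.5% were called higher and 1.06% lower, and 6.2% were higher and 17.9% lower without overlap. The leukocyte genes Ptprc, Laptm5 and Coro1a had a promoter region in all 6 lists, the 4 T cell genes had none, and of the 4 B cell genes only Ebf1 had a region. Ptprc was called higher, with 35.5 ± 5.61 in control and 63.1 ± 7.93 in MMF samples (SD, n = 3, 1.78-fold, adjusted p = 0.0127). It did not pass after centring (0.48, adjusted p = 0.0833), by rank (adjusted p = 0.0673) or without MMF sample 2 (adjusted p = 0.0518). Of 9 genes of granulocyte-macrophage progenitors and myeloid cells, 4 had a promoter region in all 6 lists (Ctsg, Spi1, Cebpa and Kit), 3 in some (Elane, Fcgr3 and Cd34) and 2 (Mpo and Prtn3) in none. None of the 4 was called by limma. The MMF samples were without overlap higher at Ctsg (0.52, adjusted p = 0.0839) and Spi1 (0.48, adjusted p = 0.0959) and lower at Cebpa (−0.31, adjusted p = 0.229; −0.67 after centring, adjusted p = 0.0274).

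Of the 4 genes of mature neutrophils only 1 had a promoter region in all 6 lists, and it was called higher (2.5% of all such promoters of protein-coding genes). This was Camp, with 21.2 ± 8.47 in control and 60 ± 3.36 in MMF samples (adjusted p = 0.00546; 1.24 after centring, adjusted p = 0.0247), which did not pass by rank (adjusted p = 0.0816). Ltf was in all 3 MMF lists only, Ly6g was in 2 lists of each group and Mmp9 had no region. Of the 4 monocyte and macrophage genes, Adgre1 and Ly6c2 were in all 6 lists and neither was called by limma. At an unadjusted p under 0.05, 1 of them was higher (4.75% of all such promoters). Csf1r was missing from control sample 3 only, and Ccr2 was in MMF sample 2 only. With a missing peak counted as 0, the summed level of the neutrophil genes was 21.7 to 37.1 in control and 75.1 to 81.4 in MMF samples. That of the monocyte and macrophage genes was 73.8 to 96.0 and 109.4 to 165.7. The level of a missing peak is unknown, and more were missing in control than in MMF samples, so these sums favor MMF. Camp alone gave 24.7, 11.6 and 27.4 in control and 61.6, 62.3 and 56.2 in MMF samples, and Ltf counted as 0 in every control. Ccr2, at 25.5, entered the sum of MMF sample 2 only. The part of these cell types in the results above was not tested, and a change in the mixture of cells and a change within cells cannot be told apart in bulk samples.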

How the data were processed

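Open chromatin had been profiled by ATAC-seq in 3 control samples and in 3 samples with MMF. The authors trimmed the reads with Trim Galore, mapped them to mm10 with Bowtie2 and called peaks with MACS2 on each sample separately, and per the labels no versions are given. The deposited lists hold for each peak a fold enrichment (a ratio of summit reads to local background), −log10 p and q values, and a score, which was not used. The study's own differential peaks, made from reads with PePr, were not repeated here.

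The reads and the background of every summit were solved from the deposited fold enrichment and −log10 p (for 100% of the peaks of every list, whole reads gave back the deposited −log10 p within 0.01%). Peaks on chromosomes 1 to 19, X and Y were merged at an overlap of at least 1 bp. Shared regions were tested with limma 3.58.1 (R 4.3.3) on log2 scaled summit reads, with no block and Benjamini-Hochberg adjustment over 41182 regions, and single values by exact permutation tests. The steps were tested on simulated data. Promoter regions overlapped the 1000 bp on either side of a start of a protein-coding gene in the GENCODE M21 basic annotation. Sequences were read from GRCm38 with pysam 0.24.0, and other steps used Python 3.11.15. Named are all members, their promoter regions and every region gained, lost, called or without overlap. For the other pathway genes, the largest differences without overlap are named. Socs1 and the genes in some lists, Tlr7 among them, were added after their values were seen. The genes and lists were chosen with earlier results of these data known. Alternatives were the rank within a list, the fold enrichment, centring, equal list length, a stricter q, a minimum peak width (which removed no peak), a replicate block, samples left out, and other window, promoter and motif widths.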

Additional observations from a re-analysis of the deposited data

How the results depend on the processing

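The regions at Cd14 +6.7 kb, Tlr4 +29.6 kb, Tlr2 +2.2 kb and Tlr5 +15.3 kb passed by rank, on the fold enrichment, after centring, at equal list length, with the replicate block and with each sample left out. The 7 regions called higher became 4 by rank (5.83% of all shared regions) and 4 after centring (6.9%), with 3 lower (13.9%). They became 6 on the fold enrichment (11.3%) and 10 at equal list length (8150 of all 35988 regions shared there). With a sample left out they were 4 to 7, the 4 being without MMF sample 2. Of all 41182 shared regions, 4677 to 6474 were called higher with a sample left out. The 16 regions higher without overlap became 7 after centring (12.4% of all shared regions), and the 2 lower became 9 after centring (31.2% of all), 1 by rank, 1 on the fold enrichment and 2 to 5 with a sample left out. Regions gained numbered 0 at equal list length (1 lost), 1 at a −log10 q of at least 2, 0 and 8 with flanks of 5 and 50 kb, and 2 to 5 with a sample left out (0 to 1 lost). A minimum peak width, planned as a stricter overlap, removed no peak and so was no separate check. Of the 36 pathway promoters, 0 were called higher and 13 lower after centring (0.786% and 30.5% of the promoters of all protein-coding genes). On that scale 27 were lower without overlap (31.2% of all shared regions). By rank 0 were called higher (5.83% of all shared regions), with 2 higher and 6 lower without overlap. With a sample left out, 0 to 1 were called higher, and 1 to 4 were higher and 6 to 8 lower without overlap. No share over all promoters or regions is given for the other promoter counts and counts without overlap, so these set nothing apart. With promoters of 250 bp, 4 of the 10 genes in place of 7 had a promoter region in all 6 lists.

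Centring turned the differences at Tlr6 −1.2 kb, Tlr6 −10.0 kb, Cd14 −8.2 kb and Myd88 −12.2 kb to −0.077, −0.00095, −0.19 and −0.028, and the summed differences of Tlr5, Tlr6, Cd14 and Myd88 to −0.31, −0.058, −0.13 and −0.34. At the Tlr5 promoter region the difference was 0.013 by rank and 0.087 on the fold enrichment, and −0.31 to 0.32 with a sample left out. With a sample left out it was −0.15 to 0.076 at the Cd14 promoter region, −0.15 to 0.040 at the Myd88 promoter region and −0.047 to 0.080 for the sum of Myd88. Windows of 100 bp held C/EBP letters in 4 regions, PU.1 in 2, RUNX in 3 and KLF in 5, and windows of 400 bp held C/EBP in 17, RUNX in 8, the interferon response element in 3, PU.1-IRF in 2 and NF-Y in 20. The cause of these shifts was not tested.

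The labels do not state that equal replicate numbers pair the samples. The deviations of same-numbered samples correlated at −0.0013, 0.0039 and −0.0026 over the shared regions, and those of other pairs at −0.0055 to 0.0067. With few reads per summit, these values cannot decide whether the samples were paired. With the replicate block 7 regions were called higher (16.8% of all shared regions) and 0 lower (0.714% of all), and no call among the 31 changed. The difference in peaks of the windows, 12.3, had a paired exact permutation p of 0.25, the smallest that 3 pairs allow. Weak peaks rest on few reads, with 4 or 5 at the lowest summit of each list, and levels below the calling threshold were not measured.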
